A study of Mus musculus with 2 samples.

Results

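miR-451a, miR-144 and miR-486 are the miRNAs best known from red blood cells, and their levels are described here in exosomes released by cultured mouse pancreatic islets. The members were fixed by name and are listed in the deposited table as mmu-miR-451a, mmu-miR-144-5p, mmu-miR-144-3p, mmu-miR-486a-5p, mmu-miR-486a-3p, mmu-miR-486b-5p and mmu-miR-486b-3p. All 7 were found among its 677 known mouse miRNAs, out of 2083 entries. Exosomes are small vesicles that cells shed, and islets are the endocrine cell clusters of the pancreas. Small RNA was sequenced in 2 libraries, 1 from islets of C57BL/6 mice on a high-fat diet with 60% fat (HFD) and 1 from islets of C57BL/6 mice on a normal chow diet with 4% fat (NCD). For both diets the islets were kept for 1 week in medium freed of serum exosomes, and vesicles were spun by ultracentrifuge out of supernatant taken daily. The sources used here state neither the age of the mice nor how many animals or islet preparations were pooled per library.

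miRNAs are short RNAs that guide Argonaute proteins to messenger RNAs through a seed, bases 2 to 8 from the 5′ end. miR-144 and miR-451a are made from a single erythroid transcript switched on by the transcription factor Gata1, and mice without miR-451 have anaemia that worsens under oxidative stress. miR-486 is encoded in an intron of Ank1, the gene of the red cell membrane protein ankyrin, and is also made from a muscle promoter inside that gene. It is therefore a miRNA of striated muscle as well as of red cells.

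The sequences below, from RefSeq on build GRCm38.p6, show that miR-451a and the arms of miR-144, which share a transcript, have different seeds. Capitals mark the seed. The mature miR-451a lies at chr11:78073186-78073207, miR-144-5p at chr11:78073010-78073032 and miR-144-3p at chr11:78073047-78073066, all on the plus strand. miR-101a-3p, at chr4:101346957-101346977 on the minus strand, is shown because it is the known miRNA of the table that has bases 2 to 7 of miR-144-3p. Base 8 differs between them.
miR-451a: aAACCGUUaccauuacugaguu
miR-144-3p: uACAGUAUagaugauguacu
miR-144-5p: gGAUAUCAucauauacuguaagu
miR-101a-3p: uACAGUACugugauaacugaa
No other entry of the table with a RefSeq mature sequence shared bases 2 to 8 with any of these 3 members, where 595 of the 677 known miRNAs had such a sequence. Of the 7 members 3 had one.

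The hairpins are shown next because they carry the arms that were counted, in capitals.
Mir144 hairpin: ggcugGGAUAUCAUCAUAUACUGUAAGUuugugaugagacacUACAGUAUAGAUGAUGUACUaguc
Mir451a hairpin: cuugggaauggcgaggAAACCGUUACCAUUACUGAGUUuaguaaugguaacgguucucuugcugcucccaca
The Mir144 hairpin lies at chr11:78073005-78073070 and the Mir451a hairpin at chr11:78073170-78073241, with 99 bases between them. In the minimum-energy fold of RNAfold, miR-144-5p and miR-144-3p sit on opposite sides of a loop of 6 bases. miR-451a instead runs through the loop: 18 of its 22 bases stand before the loop and the other 4 fill it. This short hairpin is known to bypass Dicer and to be cut by Argonaute 2, and it yields a single mature miRNA. The antisense hairpin Mir451b covers the same interval on the minus strand and was not analysed here. The protein-coding gene Eral1, on the minus strand, has its 3′ end 134 bases beyond Mir451a.

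The hairpin of miR-486a (Mir486, 128 bases) lies on chromosome 8 from 23142555 to 23142682 on the plus strand, in an intron of Ank1. Of 17 annotated Ank1 transcripts 15 span it, and in all 15 it is intronic. The hairpin of miR-486b (Mir3107, 90 bases) lies from 23142573 to 23142662 on the minus strand, entirely inside the interval of the first, in an intron of the antisense RNA gene Gm15816. The 5p miRNAs of these hairpins are known to be near-identical, and so are the 3p miRNAs. The split of reads between a and b is therefore uncertain, and the sum of a and b is given beside the separate values. How reads matching both forms were counted is not stated. If such reads were counted for each form, the sums and their shares of the library are too large.

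The HFD library held 2020831 counts and the NCD library 2417589, of which predicted new miRNAs took 1.06% in each. Levels are counts per 1000000 counts of the table (CPM), with no length scaling. A count of 0 would allow up to 1.48 CPM in HFD and 1.24 CPM in NCD. With 1 library per diet there is no replicate check and no test. Ratios of HFD over NCD carry a 95% exact counting interval, which covers counting error only. An entry was called higher or lower by a fixed rule of size, a log2 ratio of at least 1 either way with a pseudocount of 1 CPM, if 1 of the libraries held at least 10 counts. In vesicles pooled from many cells, fewer vesicles of a cell type and less of a miRNA per vesicle cannot be told apart. Among defining markers, miR-375-3p of islet endocrine cells reached 83261 CPM in HFD and 81756 CPM in NCD. miR-122-5p, which defines hepatocytes, stood above it at 241944 and 321158 CPM, a ratio of 0.753. The rarer arm of that hairpin, miR-122-3p, went the other way at 63.3 CPM in HFD and 14.1 CPM in NCD, a ratio of 4.50 (3.07 to 6.78).

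Together the 7 miRNAs made up 9.94% of the HFD library (9.90 to 9.98, exact binomial interval) and 12.5% of the NCD library (12.4 to 12.5). Nearly all of this was miR-486-5p. The a and b forms of miR-486-5p summed to 8.59% of the counts in HFD (8.55 to 8.63) and 11.8% in NCD, as 173578 and 284300 counts. In each library this sum was larger than the level of miR-375-3p, but neither form alone was. The larger form, miR-486b-5p, had 47664 CPM in HFD and 65973 CPM in NCD. The chromosome 11 locus gave far less, 1.30% of the HFD counts (1.29 to 1.32) and 0.709% of the NCD counts for miR-451a and both miR-144 arms combined.

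**Figure D1:**
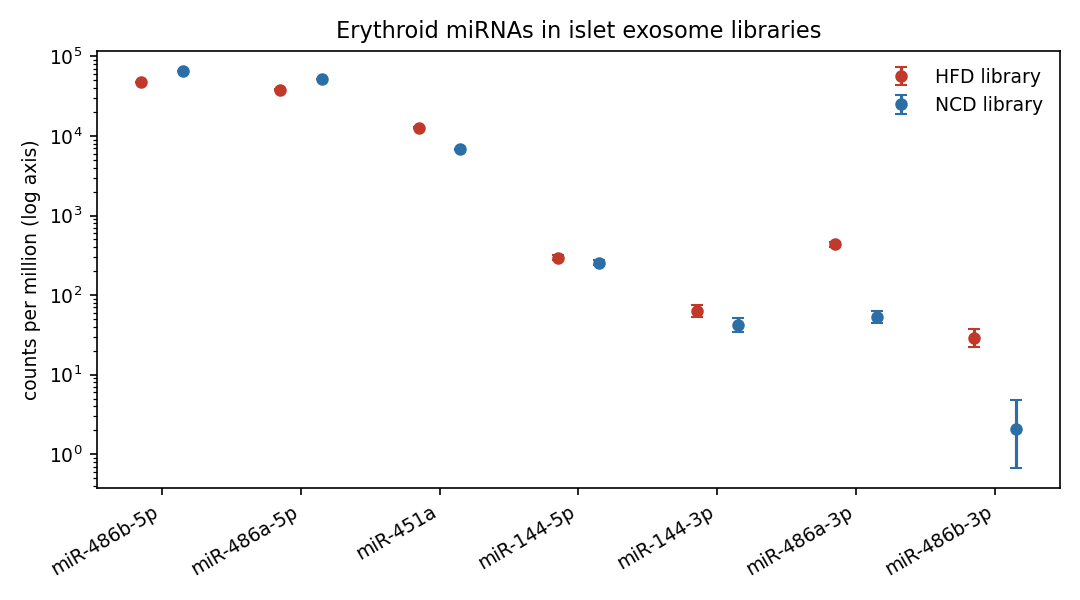
Level of each miRNA in CPM (log axis) in the HFD library (red, left of each pair) and the NCD library (blue, right), with 95% exact Poisson intervals that cover counting error only. The 5p arms of miR-486 are lower in HFD, miR-451a is higher at 12683 against 6796 CPM, and the 3p arms of miR-486 show the widest gaps.

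miR-451a, which is most abundant in maturing red cells, had 25630 counts in HFD and 16429 in NCD, or 12683 and 6796 CPM. It ranked 13th among known miRNAs in HFD and 17th in NCD. The ratio was 1.87 (1.83 to 1.90), so the HFD library was higher by more than counting error, but under the 2-fold rule. The log2 ratio with the pseudocount was 0.90.

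miR-144 was much rarer than its neighbour, and its arms stood closer to equal in the libraries. miR-144-5p, the more abundant arm, had 598 counts in HFD and 620 in NCD, or 296 and 256 CPM, a ratio of 1.15 (1.03 to 1.29). Its log2 ratio of 0.21 was below 0, at -0.052, with median-of-ratios size factors. miR-144-3p, the arm whose seed overlaps that of miR-101a-3p, had 129 counts in HFD and 102 in NCD, or 63.8 and 42.2 CPM. Its ratio was 1.51 (1.16 to 1.98). miR-101a-3p had 1088 counts in HFD and 722 in NCD, a ratio of 1.80 (1.64 to 1.98). It was more abundant than miR-144-3p in each library.

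The proportion of miR-451a to the summed miR-144 arms, all from the chromosome 11 transcript, differed between the libraries by more than counting error. miR-451a outnumbered the summed miR-144 arms 35.3-fold in HFD (32.7 to 38.0) and 22.8-fold in NCD (21.1 to 24.5). These intervals do not overlap. The proportion does not depend on how the libraries are scaled. It was 1.55 times larger in HFD, which is within 2-fold, and the sum of the miR-144 arms itself had a ratio of 1.20 (1.09 to 1.34). That sum was mostly miR-144-5p, at 598 of 727 counts in HFD and 620 of 722 in NCD. For miR-144-3p alone the interval of the ratio, 1.16 to 1.98, holds the 1.87 of miR-451a. The proportion of 5p over 3p within miR-144 was 4.64 in HFD (3.83 to 5.65) and 6.08 in NCD (4.92 to 7.57), with overlapping intervals.

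The guide arm of miR-486 went the other way from miR-451a. miR-486b-5p had 96321 counts in HFD and 159495 in NCD, or 47664 and 65973 CPM, a ratio of 0.722 (0.717 to 0.728). miR-486a-5p had 77257 and 124805 counts, or 38230 and 51624 CPM, a ratio of 0.741 (0.734 to 0.747). They were the 4th and 5th most abundant known miRNAs in HFD and the 4th and 6th in NCD. Summed, the ratio was 0.730 (0.726 to 0.735), which is 1.37-fold lower in HFD and within the 2-fold rule.

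The division of 5p counts between the a and b entries hardly moved. It describes the counts as listed, since reads of near-identical forms cannot be assigned to a hairpin with certainty. miR-486a-5p took 44.5% of the summed 5p counts in HFD (95% exact binomial interval 44.3 to 44.7) and 43.9% in NCD (43.7 to 44.1). Among 3p reads the a form took nearly all, 93.7% in HFD (91.9 to 95.2) and 96.3% in NCD (91.5 to 98.8), and those intervals overlap.

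miR-486-5p and miR-451a, the 2 leading red cell miRNAs, therefore stood in different proportions in the libraries. The summed miR-486-5p counts were 6.77 times those of miR-451a in HFD (6.68 to 6.86) and 17.3 times in NCD (17.0 to 17.6). The proportion was 2.56 times larger in NCD. Both proportions are too large if reads matching the a and b forms were counted for each form. The authors' deposited log2 fold changes come from the same 2 libraries and so are no separate check. They were 0.75 for miR-451a, -0.58 for the a form of miR-486-5p and -0.62 for the b form. The FDR values deposited with them are not repeated here, since no replicate spread stands behind them.

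The 3p arms of miR-486, the strands usually discarded, gave the widest differences of the group. miR-486a-3p had 876 counts in HFD and 129 in NCD, or 433 and 53.4 CPM, a ratio of 8.12 (6.75 to 9.85). miR-486b-3p had 59 counts in HFD and 5 in NCD, or 29.2 and 2.07 CPM, a ratio of 14.1 with a wide interval from 5.72 to 45.1. This entry passed the count minimum through its HFD counts alone. Summed, the 3p arms had 935 and 134 counts, a ratio of 8.35 (6.96 to 10.1).

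By the rule of size 2 of the 7 members were higher in HFD, these 2 arms, and 0 were lower. Over all 387 measured known miRNAs 34.9% were past 2-fold, 25.3% higher and 9.56% lower, so 2 of 7 does not set the list apart. That background depends on the settings. With a pseudocount of 10 CPM 53 of the 387 were higher and 10 lower, while the members' count remained 2. Of 309 known miRNAs that reached 10 counts in each library, which leaves out miR-486b-3p, 58 were higher and 20 lower. The members' median log2 ratio was 0.59, against 0.33 over all measured known miRNAs. In order of log2 ratio from the highest, miR-486b-3p ranked 7th and miR-486a-3p 12th of 387. miR-451a ranked 109th, and miR-486a-5p and miR-486b-5p ranked 300th and 305th. Since the 3p reads of a and b cannot be assigned with certainty, these 2 calls may rest on a single difference.

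**Figure D2:**
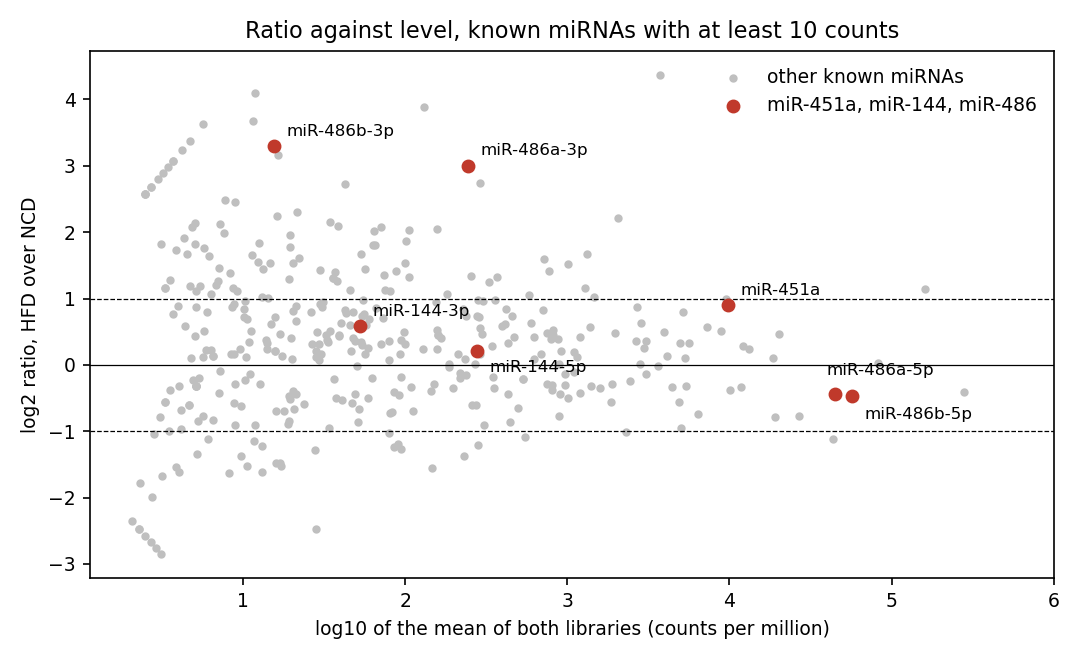
Log2 ratio of HFD over NCD (pseudocount 1 CPM) against the log10 of the mean level for the 387 known miRNAs with at least 10 counts in 1 library, with the 7 members in red. Dashed lines mark 2-fold, which the 3p arms of miR-486 pass and the other 5 members do not.

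The balance of the arms of miR-486 differed sharply between the libraries. Within miR-486a the 5p arm outnumbered the 3p arm 88.2-fold in HFD (82.5 to 94.4) and 967-fold in NCD (814 to 1159). With a and b summed the figures were 186-fold in HFD (174 to 198) and 2122-fold in NCD (1791 to 2532). The summed proportion was thus 11.4 times larger in NCD, and this value does not depend on scaling.

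Changes in arm balance were common in these libraries. Of 83 known hairpins with both arms measured and no count of 0, 34 (41.0%) had a proportion of 5p over 3p that differed at least 2-fold. By size of the difference miR-486b came 1st and miR-486a 3rd, with miR-92b between them, and miR-144 came 58th. The place of miR-486b is not firm, since its 3p arm, at 5 counts in NCD, passed the count minimum through its HFD counts alone. Another 6 hairpins, with a count of 0, were left out of this order. In the 63 hairpins with at least 10 counts for each arm in each library, 33.3% differed 2-fold. miR-486a came 1st of these 63 at 11.0-fold, followed by miR-335 at 6.06-fold and miR-122 at 5.98-fold. The rarer arm was relatively higher in HFD in 45 of the 83 hairpins and relatively lower in 38. Among hairpins past 2-fold the split was 24 and 10.

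**Figure D3:**
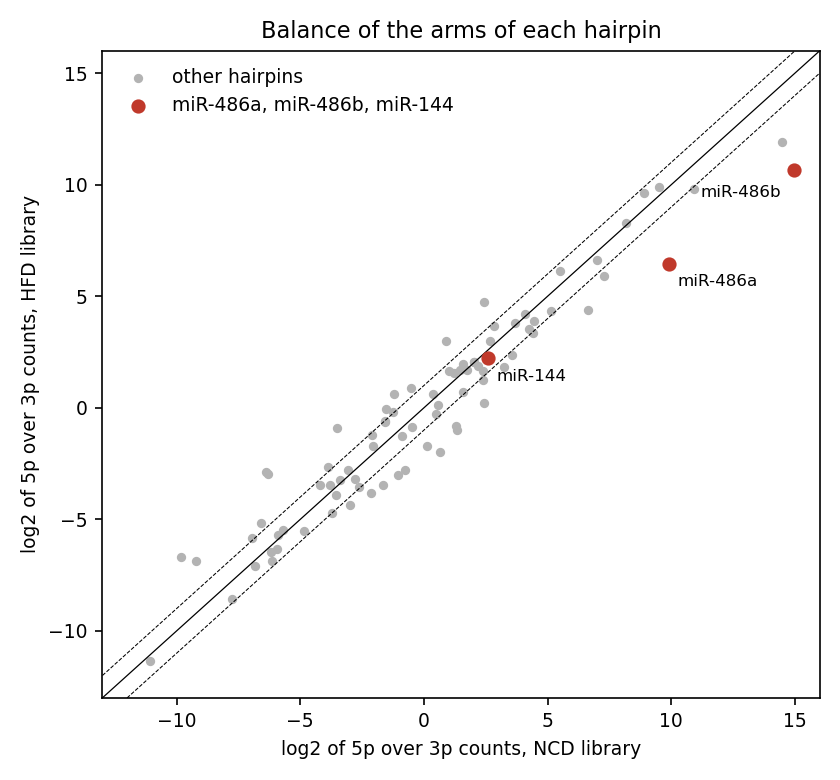
Log2 of 5p over 3p counts in the HFD library (vertical) against the NCD library (horizontal) for 83 hairpins, with equality as a solid line and 2-fold as dashed lines. miR-486a and miR-486b lie far below the line on the right, at more 3p reads per 5p read in HFD, and miR-144 lies within the dashed lines.

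Because miR-486 is made in muscle as well as in red cells, the miRNAs of striated muscle are given beside it. Of the 7 listed 4 were measured and at least 2-fold higher in HFD, where 25.3% of all measured known miRNAs were, and the listed members summed to 7678 CPM in HFD and 445 CPM in NCD. miR-1a-3p, the most abundant miRNA of heart and skeletal muscle, had 7084 and 341 CPM, a ratio of 20.8 (19.4 to 22.3). miR-133a-3p had 82.1 and 25.2 CPM, a ratio of 3.26 (2.41 to 4.44). With a pseudocount of 10 CPM 3 of the 4 were past 2-fold. miR-133b-3p, with 11 counts in HFD and 0 in NCD, passed the count minimum through its HFD counts alone. In addition, miR-208a-3p was not among the known miRNAs listed by the authors, and miR-208b-3p and miR-499-5p were under 10 counts in each library. The muscle sum moved in the direction of the 3p arms of miR-486 and against that of the 5p arms, and its part in either was not tested.

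Other miRNAs that are abundant in red cells, though none is specific to them, were mostly close between the libraries. Of 12 such miRNAs, all measured, 1 was at least 2-fold higher in HFD, 0 were lower and 11 were within 2-fold. Over all 387 measured known miRNAs 25.3% were higher and 9.56% lower, and 252 were within 2-fold. The 1 of the 12 past the rule, miR-22-3p, came within 2-fold under median-of-ratios scaling. Their median log2 ratio was 0.35, near the 0.33 of all measured known miRNAs, and they summed to 32822 CPM in HFD and 24692 CPM in NCD. miR-25-3p, the most abundant and a member of the miR-106b cluster, had 14272 and 12045 CPM, a ratio of 1.18 (1.17 to 1.20). miR-191-5p followed at 10440 and 7294 CPM, a ratio of 1.43 (1.40 to 1.46). The extremes were miR-22-3p, at a ratio of 2.23 (2.11 to 2.36), and miR-92a-3p at 0.924 (0.873 to 0.978). miR-451a thus lay in the upper part of this range and miR-486-5p below it.

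miR-451a relative to miR-23a-3p is used in plasma as a measure of red cell content, since miR-23a-3p is little affected by red cell lysis there. The proportion was 26.6 in HFD (24.9 to 28.4) and 27.9 in NCD (25.7 to 30.4), with overlapping intervals. miR-23a-3p itself had 478 CPM in HFD and 243 CPM in NCD, a ratio of 1.96 (1.77 to 2.18), a difference as large as that of miR-451a. Relative to the islet miRNA miR-375-3p, miR-451a was 0.152 in HFD (0.150 to 0.154) and 0.0831 in NCD (0.0818 to 0.0845). Whether the proportion of miR-451a differed thus depended on the miRNA it was set against.

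Markers of other blood and vessel cells were higher in HFD or within 2-fold. Of 5 measured leukocyte miRNAs of 6 listed, 3 were higher and 0 lower, where 25.3% and 9.56% of all measured known miRNAs were, and the listed members summed to 2411 CPM in HFD and 1614 CPM in NCD. With median-of-ratios or TMM factors, or a pseudocount of 10 CPM, 2 were higher. miR-223-3p of neutrophils was at 51.5 CPM in HFD and 20.3 CPM in NCD, which is 2.54-fold higher (1.79 to 3.64), and miR-150-5p of lymphocytes stood at 482 and 385 CPM, with a ratio of 1.25 (1.14 to 1.37). The 3 called higher were 3p arms. The 5p arms of the same hairpins were within 2-fold, with log2 ratios of -0.03 for miR-223, -0.72 for miR-342 and 0.57 for miR-142a. The endothelial marker miR-126a-3p, at 12659 CPM in HFD and 6341 CPM in NCD, had a log2 ratio just under the rule. Of the acinar pancreas list, 4 of 4 were at least 2-fold higher, with a sum of 221096 CPM in HFD and 99807 CPM in NCD that was nearly all miR-148a-3p. With median-of-ratios or TMM factors 2 of these 4 were past 2-fold. The other listed members, miR-216a-5p, miR-216b-5p and miR-217-5p, were at 17.8, 129 and 102 CPM in HFD. In NCD they were at 8.27, 47.6 and 28.5 CPM, so the sum follows miR-148a-3p. The part of blood, vessel and acinar cells in the ratio of miR-451a was not tested.

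**Figure D4:**
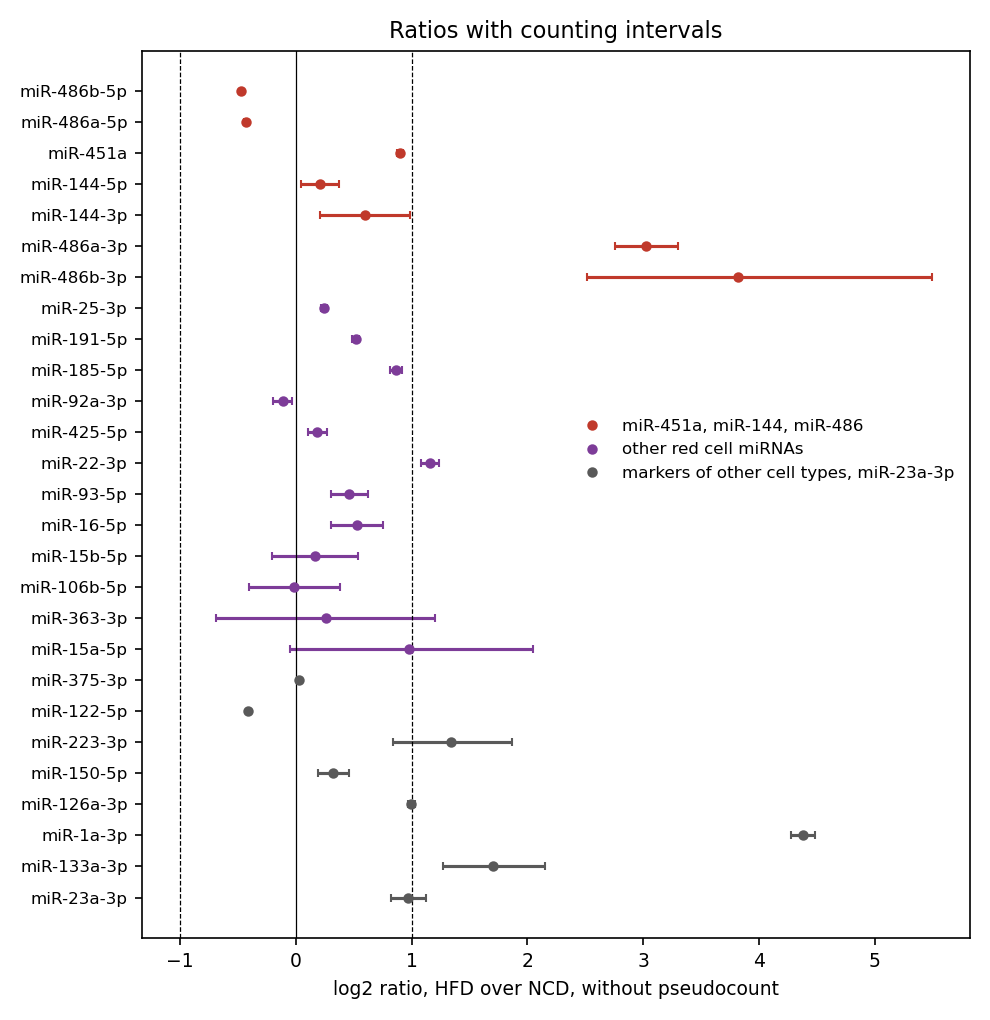
Log2 ratio of HFD over NCD without pseudocount, with 95% exact counting intervals, for the 7 members (red), 12 other miRNAs abundant in red cells (purple) and markers of other cell types with miR-23a-3p (grey). miR-451a lies close to miR-185-5p, miR-23a-3p and miR-126a-3p, whereas the 5p arms of miR-486 lie beside miR-122-5p but far from miR-122-3p, which is not drawn and had a ratio of 4.50.

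Over 47 other known miRNAs with at least 1000 CPM in each library, those with ratios nearest to the members were listed, as a description over 2 libraries. Nearest to miR-451a on the log2 scale were miR-185-5p at a ratio of 1.82, miR-21a-5p at 1.74 and miR-126a-3p. Nearest to the summed miR-486-5p were miR-495-3p at 0.746, miR-122-5p at 0.753 and miR-423-3p at 0.766.

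Scaling changed the size of the ratios but no call of a member. Under the scalings and pseudocounts tried, the log2 ratio of miR-451a lay between 0.64 and 0.90 and that of the summed miR-486-5p between -0.71 and -0.45. The opposite signs of miR-451a and miR-486-5p held under each of them. Removal of the trend with GC content gave 0.60 for miR-451a and could not be done for miR-486, which had no sequence. The fitted log2 ratio was 0.60 at 35% GC and -0.21 at 60% GC, over 180 known miRNAs with at least 100 counts in 1 library. The part of this trend in the opposite signs was not tested. Over all measured known miRNAs the median of 0.33 became 0.071 under median-of-ratios scaling and 0.18 under TMM scaling.

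**Figure D5:**
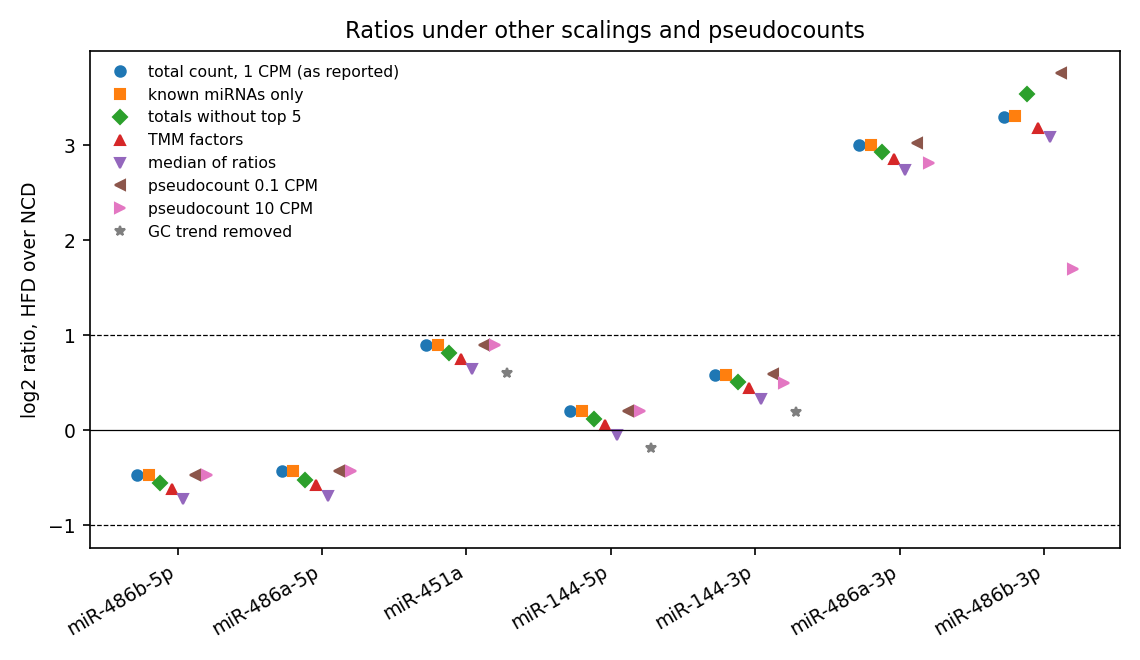
Log2 ratio of HFD over NCD of each member under the reported setting and under other scalings, pseudocounts and, for the 3 members with a RefSeq sequence, removal of the trend with GC content. The 3p arms of miR-486 stay above the 2-fold line at 1, the other members stay within it, and miR-144-5p crosses 0.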

How the data were processed

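The authors' counts are whole numbers per named miRNA, under headers that call them counts. The authors' TPM values equal counts per 1000000 counts of the table. The authors' deposited p-values, FDR and log2 fold changes compare the same 2 libraries. Reads were placed on GRCm38, per the submitters' processing notes, and the library kit was NEBNext small RNA per the labels' protocols. The sources used here state neither the aligner, nor how reads with several matches were counted, nor the authors' test. The labels name no molecular identifiers, so PCR copies may be counted as separate reads.

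CPM, ratios and exact (Clopper-Pearson, conditional on the sum of counts) intervals were computed with scipy 1.17.1 and tested on simulated data. TMM factors came from edgeR 4.0.16 and median-of-ratios factors from DESeq2 1.42.0, hairpin folds from RNAfold 2.7.2, and positions from GENCODE M21. Named miRNAs were all members, the markers of the lists, the 2 most abundant and the extremes among red cell miRNAs, the 3 nearest ratios and miRNAs with a shared seed. The members, lists and rules were chosen with earlier results of these data known. miR-101a-3p, which shares bases 2 to 7 only, was chosen after the values were seen. So were the other muscle and islet miRNAs named and the comparison of arms over all hairpins.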

Additional observations from a re-analysis of the deposited data

How the results depend on the processing

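With median-of-ratios size factors, which came out as 1 for each library and so compare raw counts, the log2 ratios were 0.64 for miR-451a, -0.052 for miR-144-5p, -0.69 for miR-486a-5p, -0.73 for miR-486b-5p and -0.71 for their sum. With TMM factors they were 0.75 for miR-451a, -0.58 for miR-486a-5p, -0.62 for miR-486b-5p and -0.60 for the sum. With totals that leave out the 5 most abundant miRNAs of either library they were 0.81 for miR-451a, -0.52, -0.56 and -0.54 for miR-486a-5p, miR-486b-5p and their sum. A pseudocount of 10 CPM gave 1.70 for miR-486b-3p. With the GC trend of mature sequences removed, miR-451a had 0.60, miR-144-3p 0.19 and miR-144-5p -0.19. This check is void for the members as a list, since 3 of 7 had a sequence. The count of members past 2-fold was 1 with a minimum of 100 counts, which drops miR-486b-3p, and 1 with miR-486a and miR-486b summed per arm. The log2 ratio of the members' share was -0.33, and -0.49 with miR-122-5p left out of the denominator. Against miR-375-3p in place of miR-23a-3p, the log2 proportion of miR-451a was -2.71 in HFD and -3.59 in NCD in place of 4.73 and 4.80, a difference of 0.87 in place of -0.073. Each shift follows from the setting that was changed, and why the libraries differ in the GC trend or in the reference miRNA was not tested. The remaining 53 values moved by less than counting error or by less than 1.5 times, among them the change in arm balance of miR-486a and miR-486b once summed, an alternative chosen after seeing the data. Those from the authors' TPM, which equal CPM, and the count without a minimum could not differ and are no check. No replicate could be left out. No paired analysis was possible because each diet has 1 library. Among the 7 members, miR-486b-3p in NCD, at 5 counts, is the value most limited by depth.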
